A study of Mus musculus with 8 samples.

Results

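The mRNAs of 6 carriers that move carboxylates and sulfate across the membranes of kidney tubule cells were followed in RNA sequencing libraries of mouse renal cortex. The genes are Slc5a8, Slc5a12, Slc13a1, Slc13a2, Slc13a3 and Slc26a1, taken by symbol from the deposited table, where each matched 1 of 35275 rows. All 6 had enough counts to be tested, among 15028 genes that did. The libraries came from 4 mutants labelled as Six2-Tfam knockout mice and 4 controls labelled Cre-, all at postnatal day 7, and each library is 1 mouse. Values per mouse are listed in the order Mut1393, Mut1453, Mut1454, Mut1819 for mutants and Con1391, Con1452, Con1822, Con1823 for controls. The gene Six2 is active in progenitors of nephron epithelium. Six2-driven deletion therefore reaches the podocytes and tubule segments that arise from them, and spares the collecting duct, vessels and stroma. Tfam encodes the factor that packages mitochondrial DNA and is needed to transcribe it. The labels give no strain, no sex and no Tfam alleles of the controls. Since no mouse analysed here carried Cre without loss of Tfam, the effects of the transgene and of the deletion cannot be told apart.

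The proximal tubule recovers small organic anions and sulfate from the glomerular filtrate with sodium-driven carriers in its apical membrane, and passes them on or takes up more from the blood through carriers in its basolateral membrane. Slc5a8 (SMCT1) and Slc5a12 (SMCT2) are apical sodium-coupled carriers of lactate, pyruvate, ketone bodies and nicotinate, with high affinity in SMCT1 and low affinity in SMCT2. Slc13a2 (NaDC1) is the apical carrier of citrate and succinate, and Slc13a3 (NaDC3) is the basolateral carrier of succinate and alpha-ketoglutarate, whose gradient drives the organic anion exchangers. Slc13a1 (NaS1) brings sulfate in across the apical membrane. Slc26a1 (Sat-1) is the basolateral sulfate exchanger and, unlike the other members, is not coupled to sodium.

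Counted reads per library ranged from 16968196 to 20417550 in mutants and from 15597762 to 17976888 in controls. Tfam, the targeted gene, had 554, 458, 549 and 503 counts in mutants, against 864, 907, 766 and 907 counts in controls. Tfam fell by 0.98 on the log2 scale (SE 0.06, adjusted p = 1.58e-07 by edgeR). The libraries also differed in sex-linked transcripts, since 4 Y-linked genes together had 4294 to 4915 counts in 3 mutants, 27 in Mut1819 and 0 to 3 in the controls. Sex and genotype therefore overlap except in Mut1819. Values for that mouse are given beside the fold change of each transporter and beside some of the other results. Those values rest on 1 mutant, with no spread between mutants. A term for libraries with Y-linked counts in the fit also compares that mouse with the controls. Throughout, CPM express counts relative to the library size scaled by TMM, a method that aligns libraries on the bulk of genes. Fold changes are log2 of mutants over controls from edgeR's quasi-likelihood test, with Benjamini-Hochberg adjustment over all genes tested.

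All 6 transporter mRNAs fell in mutants, and in each of them every mutant lay below every control. Changes in either direction were called for 46.2% of all genes tested and falls for 22.7%, and 20.8% had all 4 mutants below all 4 controls. The transporters had a median of -2.75 on the log2 scale, against -0.00078 over all genes tested. Falls of more than 1 log2 unit were called for 5.96% of genes and for all 6 transporters. Together the transporters made up 141.9, 76.8, 97.1 and 72.1 CPM in mutants, against 676, 973, 593 and 752 CPM in controls. In bulk cortex, fewer cells of a type and less RNA per cell cannot be told apart.

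**Figure D1:**
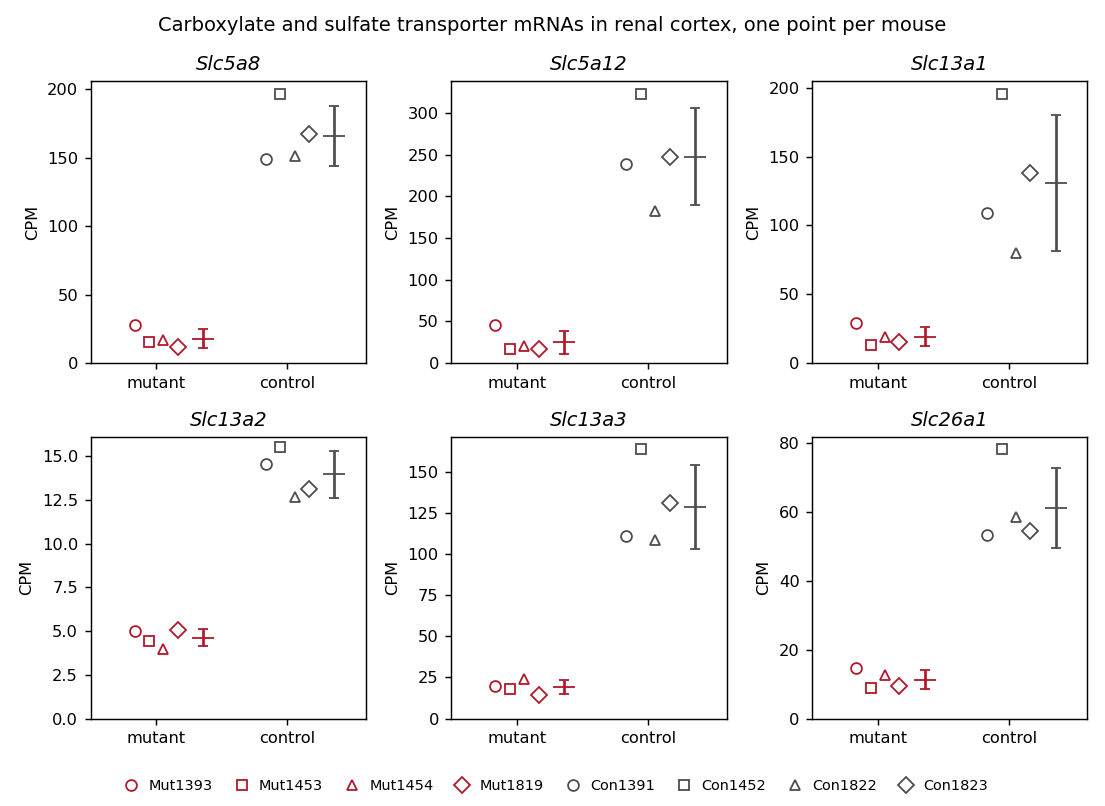
TMM-scaled CPM of the 6 transporter mRNAs, with 1 point per mouse, mutants on the left and controls on the right of each panel, and the mean with its SD beside them. In all 6 panels the mutants lie below the controls, and Con1452 is the highest control.

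In the fit to all 8 mice, the carriers of monocarboxylates showed the deepest falls of the 6 members. Among mice numbered in the 1300s, Slc13a3 fell deeper (log2 ratio -2.46, against -2.43 for Slc5a8 and -2.39 for Slc5a12). In the 1400s Slc5a12 was deepest, but Slc13a1 (-3.62) fell deeper than Slc5a8 (-3.60). In the 1800s Slc5a8 and Slc5a12 were deepest. Ratios within mice of Slc5a8 to Slc13a1 and Slc13a3, and of Slc5a12 to Slc13a3, overlapped between the groups. Slc5a12 lies on mm10 chromosome 2 (110597298 to 110647779, plus strand). It had 45.2, 17.0, 20.4 and 16.3 CPM in mutants, against 238, 323, 182 and 248 CPM in controls. Mut1393 stood above the other mutants, yet it too lay far below the lowest control. The means were 24.7 ± 13.8 CPM in mutants and 247.6 ± 57.8 CPM in controls (SD, n = 4 each), giving a log2 fold change of -3.31 with an SE of 0.30 (adjusted p = 3.05e-06 by edgeR), or 9.95-fold lower in mutants. It was the 54th of 15028 genes when ordered from the deepest fall.

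Slc5a8 lies on chromosome 10 (88885992 to 88929515, plus strand), in 15 exonic blocks of 1 annotated transcript. It had 27.5, 15.3, 17.1 and 11.8 CPM in mutants, against 149, 197, 151 and 167 CPM in controls. The controls agreed within a factor of 1.32 and the mutants spread over a factor of 2.34, with a wide gap between the groups. The means were 17.9 ± 6.77 CPM in mutants and 166 ± 22.0 CPM in controls (SD, n = 4 each), giving a log2 fold change of -3.20 with an SE of 0.20 (adjusted p = 1.82e-07 by edgeR). Mut1819 was the lowest mutant for both genes. Against the 4 controls it alone gave log2 fold changes of -3.82 for Slc5a8 and -3.93 for Slc5a12. A term for libraries with Y-linked counts gave the same rounded values because it also sets Mut1819 against the controls. Reading Mut1819 alone moved the fold by 1.53 times for each gene, so the depth of both falls depends on which mutants are read.

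Among the sulfate carriers, the apical Slc13a1 varied more between mice than the basolateral Slc26a1. Slc13a1 lies on chromosome 6 (24088283 to 24168092, minus strand) and had 29.3, 13.1, 19.1 and 15.5 CPM in mutants, against 109, 196, 80.0 and 138 CPM in controls. The controls alone differed by a factor of 2.45, the widest spread of any member among controls, and the groups still did not overlap. The means were 19.2 ± 7.16 CPM in mutants and 131 ± 49.4 CPM in controls (SD, n = 4 each), giving a log2 fold change of -2.75 with an SE of 0.28 (adjusted p = 8.74e-06 by edgeR). With Mut1819 alone the log2 fold change was -3.08.

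Slc26a1 lies on chromosome 5 (108669878 to 108675569, minus strand). It had 14.7, 8.74, 12.6 and 9.32 CPM in mutants, against 53.3, 78.3, 58.5 and 54.5 CPM in controls. Con1452 stood above the other controls, which lay close together. The means were 11.3 ± 2.80 CPM in mutants and 61.1 ± 11.6 CPM in controls (SD, n = 4 each), giving a log2 fold change of -2.42 with an SE of 0.17 (adjusted p = 3.82e-07 by edgeR). With Mut1819 alone the log2 fold change was -2.71. The gene lies within the span of Idua, a lysosomal enzyme gene on the opposite strand, and shares 141 exonic bases with it, or 3.48% of the exonic bases of Slc26a1. Idua had 261 to 289 counts in mutants and 185 to 213 counts in controls (log2 fold change 0.24, adjusted p = 0.0533 by edgeR), and every mutant lay above every control for Idua in CPM. The strand setting of the counting is not given, so reads of those 141 bases cannot be told apart.

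The carriers of dicarboxylates differed in level and in depth of fall. Slc13a3 lies on chromosome 2 (165405028 to 165473230, minus strand). It had 20.1, 18.1, 24.0 and 14.1 CPM in mutants, against 111, 164, 108 and 131 CPM in controls. Here Mut1454, not Mut1393, was the highest mutant. The means were 19.1 ± 4.09 CPM in mutants and 129 ± 25.6 CPM in controls (SD, n = 4 each), giving a log2 fold change of -2.75 with an SE of 0.16, and its adjusted p of 1.21e-07 by edgeR was the smallest of the 6. With Mut1819 alone the log2 fold change was -3.19.

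Slc13a2 lies on chromosome 11 (78397087 to 78422217, minus strand) and had the lowest level and the shallowest fall. It had 5.02, 4.46, 4.00 and 5.05 CPM in mutants, against 14.6, 15.5, 12.6 and 13.1 CPM in controls. The spread within groups was the narrowest of the members, at a factor of 1.26 in mutants and 1.23 in controls, and all 4 mutants lay well below the controls. The means were 4.63 ± 0.503 CPM in mutants and 14.0 ± 1.33 CPM in controls (SD, n = 4 each). The log2 fold change was -1.59 with an SE of 0.12 (adjusted p = 9.03e-07 by edgeR), which placed it 444th from the deepest fall. Unlike the other members, it had its highest mutant value in Mut1819, which alone gave a log2 fold change of -1.47.

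An antisense transcript overlaps the 3′ part of Slc13a2. Slc13a2os, on the plus strand (78394485 to 78405657), shares 632 exonic bases with it, or 26.2% of the exonic bases of Slc13a2. Slc13a2os had 18, 24, 23 and 26 counts in mutants, against 6, 6, 15 and 1 counts in controls, and it rose by 1.45 on the log2 scale (SE 0.47, adjusted p = 0.0232 by edgeR), with overlap of the groups in CPM. This call rests on few counts: without Mut1453, Mut1819, Con1391 or Con1452 the adjusted p was 0.0540 to 0.0565, without Con1822 the log2 fold change was 2.14, and with the term for Y-linked counts the adjusted p was 0.0885. With the strand setting unknown, reads of the shared bases cannot be told apart between the sense gene and its antisense partner. Their part in the shallower fall of Slc13a2, which held 77 to 103 counts per mutant and 199 to 259 counts per control, was not tested. Of the other members, Slc5a8 and Slc13a3 shared none of their runs of 50 transcript bases with any other annotated gene, and Slc5a12, Slc13a1 and Slc26a1 shared 0.434, 1.12 and 2.32% of theirs.

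The sequences before the start sites of 2 members are shown because Slc5a8 had the deepest fall among the 4 members with a RefSeq promoter window and Slc13a2 the shallowest. Each window runs from 250 bases before the start to 50 bases from it on, on build GRCm38.p6 and the strand of the gene (chr10:88885742-88886041, plus, and chr11:78422185-78422484, minus), and capitals mark a match of TATAAA on either strand.
Slc5a8: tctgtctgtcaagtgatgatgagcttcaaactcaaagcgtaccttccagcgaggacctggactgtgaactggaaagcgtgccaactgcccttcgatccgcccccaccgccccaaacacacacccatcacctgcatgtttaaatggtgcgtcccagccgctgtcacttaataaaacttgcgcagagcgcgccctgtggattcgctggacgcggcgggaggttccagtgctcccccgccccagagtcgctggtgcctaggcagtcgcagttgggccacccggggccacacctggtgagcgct
Slc13a2: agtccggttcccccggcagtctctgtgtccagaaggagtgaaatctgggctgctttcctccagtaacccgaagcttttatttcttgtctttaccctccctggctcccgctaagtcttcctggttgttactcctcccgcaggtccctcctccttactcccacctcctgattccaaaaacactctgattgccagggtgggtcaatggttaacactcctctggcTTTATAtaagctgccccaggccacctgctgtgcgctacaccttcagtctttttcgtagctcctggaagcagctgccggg
The window of Slc13a2 holds TATAAA read on the opposite strand, beginning 29 bases before the start site, and that of Slc5a8 holds none. A further window of the members, of Slc26a1, holds it, beginning 240 bases before the start site, so 2 of 5 windows hold it. TATAAA was found on either strand in 13.6% of 32851 promoter windows. Only this exact word was searched. Near matches, such as TATATAAG on the own strand of Slc13a2 at the marked site, were not counted. Motifs of regulators of proximal tubule genes were searched on both strands in the same windows. The HNF4 motif CAAAGTNCA was in 1.41% of all windows. None of the 5 windows of the 4 members, of which 1 has a pair of windows, held it. The nuclear receptor core AGGTCA was in 16.3% of all windows and in 1 window of the members, of Slc26a1. No motif overlapped another in the windows of the members.

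Levels of different genes were compared per length, with the authors' FPKM (counted reads scaled by gene length and library total). In mutants the order was Slc5a12 at 11.7 ± 6.56 FPKM, Slc13a3 at 10.3 ± 2.05, Slc13a1 at 8.06 ± 3.0, Slc26a1 at 4.12 ± 1.0, Slc5a8 at 3.45 ± 1.30 and Slc13a2 at 1.97 ± 0.246 FPKM (SD, n = 4 each). In controls it was Slc5a12 at 111 ± 21.9 FPKM, Slc13a3 at 65.8 ± 10.6, Slc13a1 at 51.4 ± 17.6, Slc5a8 at 30.3 ± 2.94, Slc26a1 at 21.1 ± 3.32 and Slc13a2 at 5.63 ± 0.387 FPKM. Slc5a8 and Slc26a1 thus stood in opposite order in the groups. Neighbours whose ranges overlapped were Slc5a12 with Slc13a3, Slc13a3 with Slc13a1, and Slc26a1 with Slc5a8 in mutants, and Slc13a3 with Slc13a1 and Slc13a1 with Slc5a8 in controls. The order in the middle depended on the gene length used, which was chosen as a check after the data were seen. The deposited FPKM rest on lengths of 2159 bases for Slc5a12, 2450 for Slc13a1 and 1895 for Slc13a3, whereas all annotated exons of these genes cover 4061, 7728 and 5215 bases. With the longer lengths Slc5a12 stayed highest and Slc13a2 lowest, and Slc13a1 moved to 2.55 ± 0.950 FPKM in mutants (the fifth place) and 16.3 ± 5.56 FPKM in controls (the fourth place). Slc5a8 then stood above Slc26a1 in both groups, at 3.45 against 2.86 FPKM in mutants and 30.2 against 14.6 FPKM in controls, so their change of order rests on the lengths of the deposited values.

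**Figure D2:**
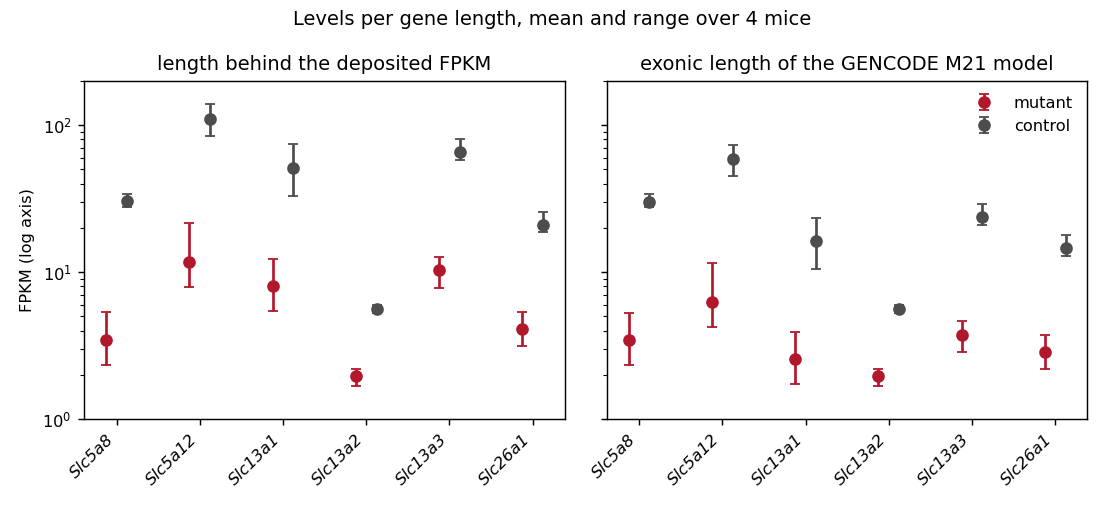
FPKM on a log axis for the 6 transporters, with the mean as a point and the range over 4 mice as a bar, mutants left of controls. On the left the lengths behind the deposited values were used and on the right the exonic lengths of the annotation, which lower Slc13a1 in controls to 16.3 FPKM and leave Slc5a12 highest at 59.0 FPKM.

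Whether the members fell by different amounts was tested with the ratio of 2 members within each mouse, which does not depend on how libraries are scaled. Over 15 pairs, 0 passed at an adjusted p of 0.05, and 8 had an unadjusted p of 0.0286, for which the adjusted p was 0.0536. An unadjusted p of 0.0286 is the smallest that an exact two-sided permutation test of 4 mice against 4 can give. A larger difference could not have lowered it, so the count of 0 says nothing on the size of these 8 differences. All 5 pairs with Slc13a2 were among the 8, with Slc13a2 relatively higher in mutants. Relative to Slc13a2, the log2 level of Slc5a12 was 2.26 ± 0.648 in mutants and 4.11 ± 0.233 in controls (SD, n = 4 each), a difference of -1.85. The ratios of Slc5a8 and of Slc5a12 to Slc26a1 were lower in mutants with no overlap of the groups, with differences of -0.83 and -0.99 log2 units. The log2 ratio of Slc5a12 to Slc13a1 differed by -0.68. The monocarboxylate carriers kept close to each other, with a log2 ratio of Slc5a8 to Slc5a12 of -0.39 ± 0.249 in mutants and -0.55 ± 0.202 in controls (adjusted p = 0.367 by the exact permutation test). For Slc13a1 and Slc13a3 the difference was 0.0053 log2 units, and the ratio spread from -0.46 to 0.54 in mutants and from -0.44 to 0.26 in controls, so a difference smaller than that spread was not detectable.

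The marker genes of the proximal tubule moved in the same direction. Of 18 listed markers without the transporters, 18 fell, their median was -2.31 on the log2 scale, and their summed level was 1382 to 2470 CPM in mutants and 7918 to 11341 CPM in controls, and none was at 0. Their mean log2 CPM was 5.82 ± 0.383 in mutants and 8.35 ± 0.228 in controls (SD, n = 4 each), a difference of -2.53 (exact two-sided permutation test, p = 0.0286). Mut1393 had the highest value of the mutants and Con1452 that of the controls, and the same mice were highest for 4 of the 6 transporters among mutants and all 6 among controls. Set against this mean in each mouse, Slc5a8 differed by -0.73 and Slc5a12 by -0.89 log2 units in mutants, and Slc13a2 was higher by 0.96, each with no overlap of the groups. These 3 had an unadjusted p of 0.0286 and an adjusted p of 0.0571 by exact two-sided permutation tests, so 0 of 6 passed. As 0.0286 is the smallest p this test can give, their not passing says nothing on the size of the differences. For the ratios of Slc13a1 (a difference of -0.22), Slc13a3 (-0.22) and Slc26a1 (0.10) to the markers, the groups overlapped. The part that the number of proximal tubule cells has in the falls was not tested.

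**Figure D3:**
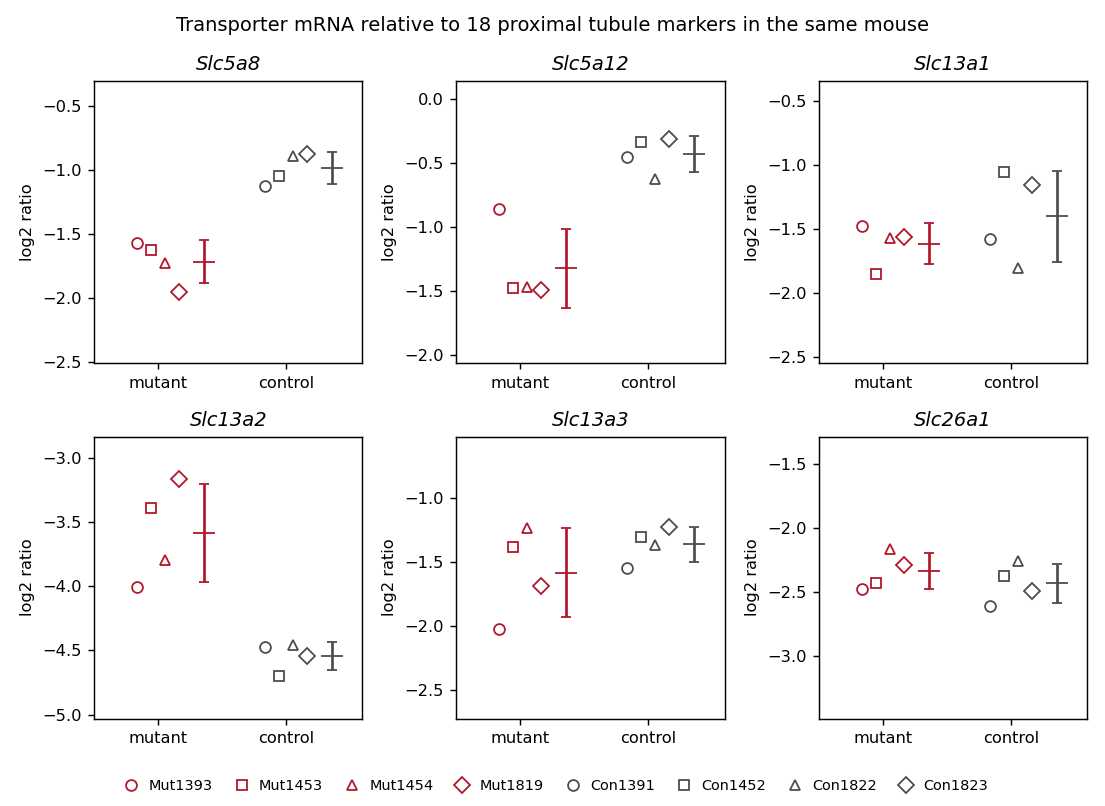
Log2 CPM of each transporter minus the mean log2 CPM of 18 proximal tubule markers in the same mouse, with a pseudocount of 0.1 CPM, 1 point per mouse and the mean with its SD beside them; each panel spans the same number of log2 units. Slc5a8 and Slc5a12 lie lower in mutants, Slc13a2 lies higher, and the groups overlap for Slc13a1, Slc13a3 and Slc26a1.

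Markers of other cells in the cortex moved by varying amounts and in both directions. Over all genes tested, 23.5% were called higher and 22.7% lower. The summed level of 7 macrophage markers was 186 to 215 CPM in mutants and 117 to 133 CPM in controls, and 7 of 7 rose. Of the endothelial markers 7 of 7 fell (718 to 801 CPM in mutants, 935 to 1086 CPM in controls; 3 of 7 with the term for Y-linked counts), and of the stromal markers 1 of 7 fell and 6 did not pass (4524 to 5429 CPM in mutants, 4593 to 6706 CPM in controls). Of the distal convoluted tubule markers 5 of 5 fell, with a median of -2.28 near that of the proximal tubule (193 to 381 CPM in mutants, 1117 to 1308 CPM in controls), and of the thick ascending limb markers 4 of 5 fell (1113 to 1413 CPM in mutants, 2201 to 2634 CPM in controls). Of the podocyte markers 5 of 6 fell (1026 to 1275 CPM in mutants, 1553 to 1744 CPM in controls), and of the 9 collecting duct markers tested 8 fell (612 to 927 CPM in mutants, 971 to 1148 CPM in controls). Median log2 fold changes were -1.21 for thick ascending limb, -0.63 for collecting duct, -0.55 for podocyte and -0.43 for endothelial markers. They were -0.20 for stromal, 0.01 for nephron progenitor and 1.09 for macrophage markers. Of the 4 nephron progenitor markers tested, 1 rose and 2 fell (20.2 to 22.1 CPM in mutants, 19.9 to 24.4 CPM in controls). Eya1 rose by 1.39 on the log2 scale, and Cited1 and Meox1 fell by 0.91 and 0.34. Six2 had 42 counts over the mutants and 5 over the controls, too few to test. With the term for Y-linked counts 6 collecting duct, 0 stromal and 1 nephron progenitor markers were called lower and 6 macrophage markers higher (5 with Mut1819 alone). None of these markers was at 0 in all libraries, and their part in the falls of the transporters was not tested.

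In the list for handling of lactate, pyruvate and ketone bodies, 4 of 13 rose, where 23.5% of all genes tested were called higher, and 7 fell, and the median was -0.26 on the log2 scale. Slc16a4, an orphan member of the monocarboxylate transporter family, fell by 3.33 on the log2 scale (adjusted p = 1.68e-07), to 8.85 ± 2.57 CPM in mutants, against 89.3 ± 22.3 CPM in controls. Slc16a1, the proton-coupled lactate carrier MCT1, rose instead, with 112 ± 12.6 CPM in mutants and 62.9 ± 10.5 CPM in controls (log2 fold change 0.83, adjusted p = 7.16e-05). Emb, an accessory protein of monocarboxylate carriers, rose by 0.74 (adjusted p = 8.60e-07) and the high-affinity carrier Slc16a7 (MCT2) by 0.48 (adjusted p = 0.000171). Bdh1, which interconverts ketone bodies, rose by 0.72 with overlapping groups, and it did not pass with the term for Y-linked counts (0.45, adjusted p = 0.227). Of the mitochondrial pyruvate carrier, Mpc1 fell by 0.65 and Mpc2 fell by 0.57, and Oxct1, the enzyme that activates ketone bodies for use, fell by 0.56. These adjusted p-values are from the same edgeR fit, as are those that follow.

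Among genes for handling of dicarboxylates and citrate, 11 of 12 fell and 0 rose, with a median of -1.26. With Mut1393, Mut1819, Con1391 or Con1452 left out, 9 were called lower, as Acly and Me1 lost their calls. The organic anion exchangers that run on alpha-ketoglutarate were among them. Slc22a8 (OAT3) fell by 3.11 (adjusted p = 1.09e-07), and Slc22a6 (OAT1) fell by 1.83 (log2 fold change -2.74 with Mut1819 alone), to 47.8 ± 15.2 CPM in mutants, against 170 ± 31.3 CPM in controls. Oxgr1, the receptor for alpha-ketoglutarate, fell by 2.41 (adjusted p = 1.68e-08), and Sucnr1, the receptor for succinate, fell by 1.37. Of the mitochondrial carriers, that for dicarboxylates (Slc25a10) fell by 1.42 (adjusted p = 1.12e-06), while that for citrate (Slc25a1) was at 0.06 on the log2 scale (adjusted p = 0.605). Idh1, the cytosolic isocitrate dehydrogenase, fell by 1.15.

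In the list for making and using sulfate, 9 of 12 tested genes fell and 1 rose, with a median of -0.70. Of the enzymes that take cysteine sulfur towards taurine and sulfate, Cdo1 fell by 1.64 (adjusted p = 3.15e-07) and Csad fell by 1.04 (adjusted p = 1.92e-07). Tst, a mitochondrial sulfurtransferase, fell by 1.28 (adjusted p = 1.69e-06), and Suox, which makes sulfate from sulfite, fell by 0.99. Of the synthases of the activated sulfate donor, Papss1 fell by 0.65 (adjusted p = 1.31e-06) and Papss2 fell by 0.81. Ethe1, the mitochondrial persulfide dioxygenase, rose by 0.84 (adjusted p = 0.000886), against the median of its list, and had 0.51 (adjusted p = 0.112) with the term for Y-linked counts. Slc35b3 and Impad1 did not pass, with log2 fold changes of -0.10 and -0.02.

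Of 6 close relatives tested, 5 fell and 0 rose, with a median of -0.52, nearer to 0 than that of the members. Slc13a4, a sulfate carrier best known from placenta and brain, fell by 1.73 (adjusted p = 0.00443) at a low level of 0.557 ± 0.213 CPM in mutants and 1.83 ± 1.04 CPM in controls. The vitamin carrier Slc5a6 fell by 0.73, the anion exchanger Slc26a6 fell by 0.61 and Slc26a11 fell by 0.43. The widely expressed sulfate carrier Slc26a2 fell by 0.20 (adjusted p = 0.0429 by edgeR), with overlapping groups. Its call was kept with limma-voom (adjusted p = 0.0444) and lost with DESeq2 (adjusted p = 0.0611) and with edgeR without a filter (adjusted p = 0.0838). With Mut1819 alone 2 of the 6 relatives were called lower and with the term for Y-linked counts 3 were, without Slc13a4 (adjusted p = 0.0752 and 0.0519) and Slc26a2 (0.620 and 0.614) in either. Slc26a7 had a log2 fold change of -0.00057, and the citrate carrier Slc13a5 had 1 count over the mutants and 2 counts over the controls, too few to test.

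The list of apical scaffolds and regulators fell as well, 8 of 8, with a median of -0.93. Pdzk1, a scaffold of apical carriers, fell by 2.11 (adjusted p = 3.64e-07). Among nuclear factors, the thyroid hormone receptor gene Thrb fell by 1.69 (adjusted p = 6.12e-07), Hnf4a fell by 1.30 (adjusted p = 3.12e-06) and the vitamin D receptor gene Vdr fell by 0.93 (adjusted p = 2.47e-06). Read against the 22.7% of all tested genes that were called lower, the shares in all 5 lists were higher, but the lists were chosen with the falls of the proximal tubule known and no set test was run.

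**Figure D4:**
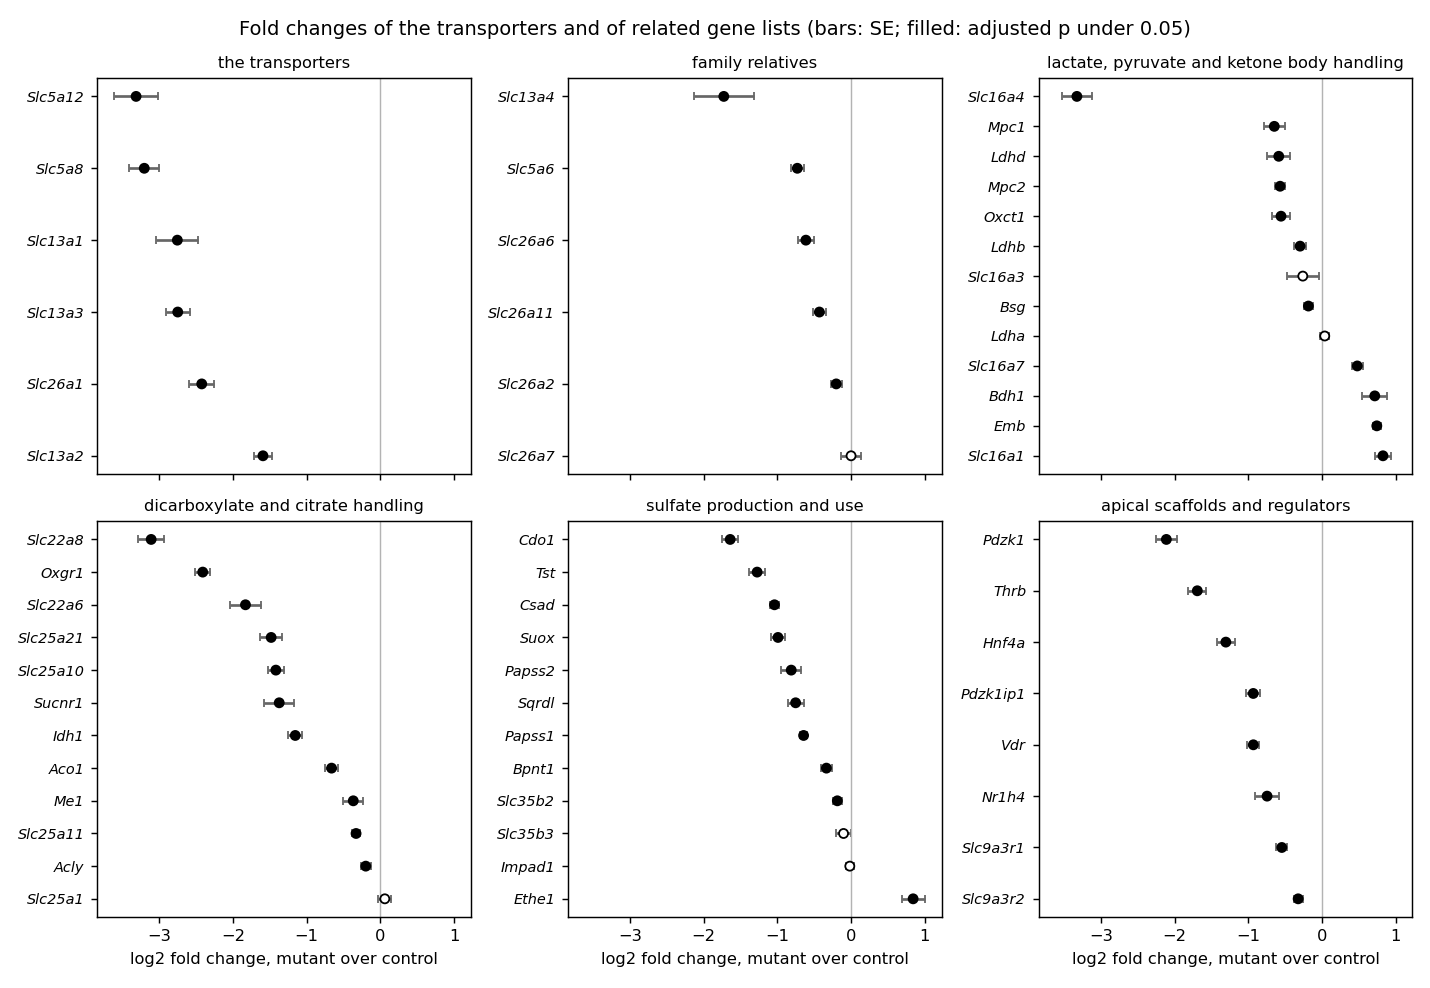
Log2 fold changes of mutants over controls with their SE for the 6 transporters and 5 lists of related genes, in each panel from the deepest fall at the top, where filled points have an adjusted p under 0.05. Of the filled points, Slc16a1, Emb, Bdh1, Slc16a7 and Ethe1 lie right of 0, and the transporters lie between -3.31 and -1.59.

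The genes whose profiles over the 8 mice were most like each member were found among 13356 genes, by the root mean square difference of log2 CPM after each gene's own mean was taken off. Nearest to Slc5a8 were Acsm1 (a difference of 0.135 log2 units), which activates medium-chain fatty acids, Sugct (0.157) and Galnt11 (0.159). Nearest to Slc5a12 were Pcx (0.157), the pyruvate carboxylase, Spp2 (0.164) and Gatm (0.187), the first enzyme of creatine synthesis. Slc13a1 was nearest to Slc6a19 (0.165), the apical carrier of neutral amino acids, followed by Ugt1a2 (0.176) and Lrrc19 (0.179). Slc13a3 was nearest to Ass1 (0.138), which makes argininosuccinate, then Proc (0.147) and Cckar (0.160). Nearest to Slc26a1 were Sypl2 (0.106), Zmynd10 (0.12) and Slc37a4 (0.138), the glucose 6-phosphate carrier of the endoplasmic reticulum, and nearest to Slc13a2 were Aifm3 (0.0905), Iqcg (0.0987) and Chst9 (0.104), a sulfotransferase. Between members the smallest difference was 0.212, for Slc5a8 and Slc5a12, and the largest was 1.02, for Slc5a12 and Slc13a2. These likenesses are descriptions, since all profiles share the same mice and the step between the groups.

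The mouse numbers fall into ranges of 1300, 1400 and 1800, whose meaning the labels do not give. Within the 1300s (1 mutant, 1 control) the log2 ratio ran from -2.46 for Slc13a3 to -1.52 for Slc13a2. Within the 1400s (2 mutants, 1 control) it ran from -4.11 for Slc5a12 to -1.86 for Slc13a2, and within the 1800s (1 mutant, 2 controls) from -3.74 for Slc5a8 to -1.33 for Slc13a2. All 6 members were thus lower in mutants within each range, and Slc13a2 had the shallowest fall in each. In the authors' deposited table the log2 fold changes were -2.94 for Slc5a8, -2.78 for Slc5a12, -2.67 for Slc13a3, -2.35 for Slc26a1, -2.33 for Slc13a1 and -1.55 for Slc13a2. These lie nearer to 0 than the ratios of the group means in the authors' deposited table, whose log2 values were -3.32 for Slc5a12 and -3.21 for Slc5a8, and the order of these genes differs between those columns.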

How the data were processed

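RNA was sequenced from renal cortex of 8 mice, 4 mutants and 4 controls. Per the submitters' processing notes, the tools were DESeq2, HTSeq, TopHat2 and Bowtie2 and the build mm10, and for versions, strandedness and annotation the sources used here give nothing. Per the file headers, the authors deposited for each mouse the read counts and the FPKM of every gene, a mean signal per group (scaled counts), the authors' log2 fold change, and their p-value with its adjusted form.

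The test of counts was that of edgeR 4.0.16 under R 4.3.3 (filterByExpr, TMM, quasi-likelihood tests, Benjamini-Hochberg adjustment at 0.05), fitted to all 8 libraries; SE is the log2 fold change over the root of F. Ratios within mice used log2(CPM + 0.1) and exact permutation tests over 70 assignments. Depth was 15597762 to 20417550 counts per mouse. In 12 pairs of libraries within groups the reduced chi-square was 4.43 to 39.4, above counting noise, so none was a duplicate. Counts of 14782 genes were simulated with the dispersion of the controls and 47 to 50 genes changed at each fold. There edgeR found 74.0% of 1.5-fold and 89.8% of 2-fold changes, with 10 false calls of 188. In the data 46.2% of genes were called, so the simulated rates need not hold for them.

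Positions came from GENCODE M21 and promoter windows from RefSeq GRCm38.p6, which held 4 of the 6 members. DESeq2 1.42.0, limma-voom (limma 3.58.1) and other settings were tried as alternatives, for the genes of the lists as settings chosen after the data were seen. The members and lists were chosen with earlier results of these data known. Named genes are the members, up to 4 list genes with the smallest adjusted p, list genes moving against their list's median, genes overlapping a member, and the 3 nearest profiles of each; any other gene was chosen after its values were seen. The list of scaffolds and regulators is given without 2 genes that are not reported here. Adgre1 was matched by its synonym Emr1.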

Additional observations from a re-analysis of the deposited data

Results flagged for a closer look

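Mut1393 held 45.2 CPM of Slc5a12, against 16.3 to 20.4 CPM in the other mutants, a gap that took up 0.857 of the range of the mutants; this exceeds Dixon's critical value at the 95% level. The same mouse had the highest level of Slc5a8, Slc13a1 and Slc26a1 among mutants and the highest mean of the proximal tubule markers, at 6.36 log2 CPM, against 5.52 to 5.83 in the other mutants. It also had the highest share of counts from mitochondrial genes among mutants, at 1.84%, against 1.15 to 1.26% in the others. In controls this share was 3.88 to 5.88% in 3 mice and 9.28% in Con1452, the highest control for all 6 transporters, and the part of this share in the levels was not tested. Without Mut1393 the log2 fold change of Slc5a12 was -3.78. Among 12 groups of 4 values this was the only one past the critical value, and chance gives about 1 in 20.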

How the results depend on the processing

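All 6 members kept their fall and their call under all 17 settings tried, which were a filter at 10 CPM, no filter, limma-voom, DESeq2, size factors by median ratio, scaling without mitochondrial genes, terms for the range of mouse numbers and for libraries with Y-linked counts, Mut1819 alone, and each of 8 mice left out in turn. The log2 fold change ranged from -3.82 to -3.05 for Slc5a8, -3.93 to -3.15 for Slc5a12 and -3.08 to -2.48 for Slc13a1. It ranged from -1.64 to -1.47 for Slc13a2, -3.19 to -2.60 for Slc13a3 and -2.71 to -2.27 for Slc26a1. With 1 mouse left out, the highest adjusted p was 7.75e-05 by edgeR, for Slc13a1. Over all genes, the number called was 6948. Fewer were called with Mut1819 alone or with the term for Y-linked counts, where fewer libraries carry the contrast. These settings are in effect the same contrast, of 1 mutant against the controls. The order of levels per length was kept with TMM scaling, while with the annotated exonic lengths 4 of 6 members kept their place in mutants and 3 of 6 in controls, since the lengths themselves differ. In the pathway lists, other calls were lost with Mut1819 alone or with the term for Y-linked counts, all with the same sign. They were those of Bsg, Slc35b2, Slc9a3r2, Oxct1, Acly, Me1 and Slc26a11. The calls of Bsg, Slc35b2, Acly, Me1 and Slc26a2 were also lost in some of the fits with 1 mouse left out. The count of pairs and of members against the markers that passed stayed at 0 under the settings tried, and with 1 mouse left out the smallest exact p is 0.0571, so those runs say nothing on stability. The sign of the ratio of Slc13a1 to Slc13a3 turned in 3 of 9 settings and that of Slc26a1 to the markers in 1 of 10, both without a call. No paired analysis was run because the labels give no litters or pairs of mice. Replicates are single mice per library, so p-values measure the spread between them. The exception is Mut1819 alone, where only the spread between controls enters.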
